A study of Mus musculus with 4 samples.

Results

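A list of 10 genes that are widely used to mark mesenchymal progenitors and cells around blood vessels was followed through the bulk RNA-seq of skeletal stem/progenitor cells. The genes were *Prrx1*, *Prrx2*, *Six2*, *Pdgfra*, *Pdgfrb*, *Ly6a*, *Cd34*, *Nes*, *Mcam*, and *Cspg4*. They were chosen by name, with earlier results of these data known, and all 10 were found among the 23946 gene symbols. CD51+;CD200+ cells of wild-type CD-1 mice, aged 3 days after birth, were sorted by FACS from 4 sites, namely the coronal suture (COR), the sagittal suture (SAG), the posterior frontal suture (PF), and the growth plate of the tibia (GP), and each site gave 1 library. The sort took cells that carried CD51, an integrin subunit, and CD200, a membrane glycoprotein, and left out cells with the blood antigens CD45 and Ter119, the endothelial Tie2, or any of CD105, 6C3, Thy1.1, and Thy1.2. The serial digests of a tissue were pooled before the sort. The cells came from a group of mice, so a library does not stand for 1 animal. Each suture sample was dissected with its bone fronts, the dura mater beneath it, and the periosteum above it. GP served as the control tissue, and the PF suture is the one that fuses in early life. Values are FPKM, the fragment count of a gene divided by its length and by the size of the library, so that levels of different genes can be set side by side. No site was replicated, so no test was made, and neighbouring values in an order of tissues cannot be told apart from library noise.

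The 10 genes play different parts. *Prrx1* and *Prrx2* encode paired-related homeobox factors of limb and craniofacial mesenchyme, and *Six2* encodes a homeobox factor of craniofacial mesenchyme and of nephron progenitors in the kidney. *Pdgfra* and *Pdgfrb* encode the receptors of platelet-derived growth factor, which recruit and expand mesenchymal cells and, in the case of the beta receptor, the mural cells of vessels. *Ly6a* encodes Sca-1 and *Cd34* a surface sialomucin, both used in sorting stem cells of blood and connective tissue. *Nes* encodes the intermediate filament nestin, *Mcam* the adhesion molecule CD146, and *Cspg4* the proteoglycan NG2, all used to find pericytes and marrow stromal cells, although glia and endothelium can carry some of them as well.

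All 10 genes were listed at FPKM of 1 or more in every library, so the filter on low values removed none of them. They spanned a wide range of levels, from *Nes* at 1.37 FPKM in PF to *Prrx2* at 433 FPKM in COR. Of the 10, 5 differed at least 3-fold between some pair of tissues, which was also found for 14.9% of the 10013 genes that reached 1 FPKM in every library. The range over the 4 tissues, on the log2(FPKM + 1) scale, had a median of 1.51 for the 10 genes and 0.81 for those 10013 genes. Since the 10 were chosen with earlier results of these data known, both contrasts are a description only. The 5 genes were *Six2*, *Pdgfrb*, *Ly6a*, *Cd34*, and *Mcam*. The other 5, *Prrx1*, *Prrx2*, *Pdgfra*, *Nes*, and *Cspg4*, differed by less.

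**Figure D1:**
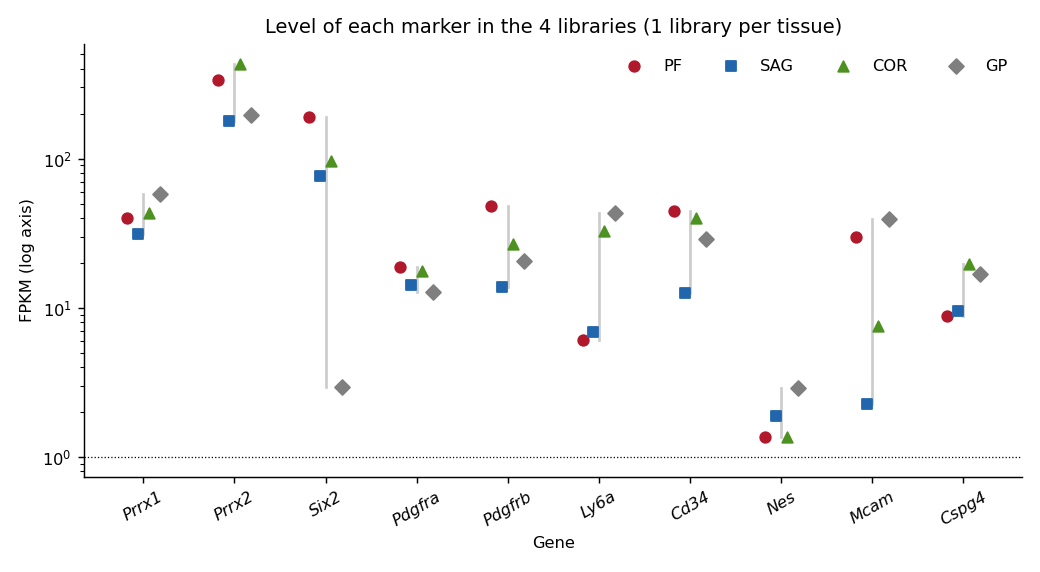
FPKM of the 10 genes (log axis) in the PF, SAG, COR, and GP libraries, 1 point per library, with a grey line from the lowest to the highest value and a dotted line at 1 FPKM. *Six2* spans from 2.94 in GP to 191 in PF and *Mcam* from 2.28 in SAG to 39.4 in GP, while *Pdgfra* stays between 12.7 and 18.8.

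The sorted cells carried transcripts of the mesenchymal homeobox genes in every tissue. *Prrx1* (mm9 chromosome 1, 165175247 to 165243841) was at 57.7 FPKM in GP and at 43.5 in COR, 40.1 in PF, and 31.0 in SAG. The highest and lowest libraries differed 1.86-fold in FPKM, and GP was above the 3 sutures. The GP vs PF log2 ratio of *Prrx1* was 0.51, with 0.06 relative to *Gapdh* and 0.14 after a correction for GC content. GP and PF were thus nearly level under those alternatives. *Prrx2* (chromosome 2, 30690492 to 30736761) was at 196 FPKM in GP and at 433 in COR, 335 in PF, and 178 in SAG. It lay above 95.97% or more of the genes with FPKM of at least 1 in each library, and COR and PF stood above SAG and GP. After a correction for GC content PF was nearly level with both, since the log2 ratio of *Prrx2* went from 0.91 to 0.16 for PF vs SAG and from -0.77 to -0.15 for GP vs PF. The GP vs COR log2 ratio of *Prrx2* was -1.14, short of the 3-fold threshold of 1.58 on that scale. A lower or equal ratio was found for 2.27% of the 12209 genes compared between these libraries.

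Within a library, *Prrx2* was above *Prrx1* in every tissue. A ratio of 2 genes of the same library does not change with a scaling factor for that library. *Prrx2* over *Prrx1* was 3.40 in GP and 9.95 in COR, 8.36 in PF, and 5.73 in SAG, so the 3 sutures had higher ratios than GP. The pair differs in GC content, at 63.7% for *Prrx2* and 43.7% for *Prrx1*, and these ratios are not corrected for it. With the correction the GP vs PF log2 ratio was -0.15 for *Prrx2* and 0.14 for *Prrx1*, a smaller gap, and PF vs SAG was 0.16 for *Prrx2* and 0.78 for *Prrx1*, which places PF below SAG in *Prrx2* over *Prrx1*.

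*Six2* showed the widest range of the 10 genes. *Six2* (chromosome 17, 86083608 to 86087594, minus strand) was at 2.94 FPKM in GP and at 96.5 in COR, 191 in PF, and 77.0 in SAG. All 3 sutures were far above GP, where *Six2* stood above 18.9% of the genes with FPKM of at least 1, compared with 90.7% or more in the sutures. The log2 ratio was -5.61 for GP vs PF, -4.31 for GP vs SAG, and -4.63 for GP vs COR. Among the sutures PF was highest, with 2.48 times the FPKM of SAG and 1.98 times that of COR, both below 3-fold. The PF vs SAG log2 ratio of *Six2* fell to 0.64 after the GC correction and rose to 1.82 relative to *Gapdh*. Its PF vs COR log2 ratio went from 0.98 to 0.58 with the GC correction. The 250 bases before the *Six2* start (chr17:86087595-86087844, mm9, minus strand, from RefSeq) are shown because *Six2* differed most, with the GC box GGGCGG on either strand in capitals. This window held 2 such matches and no TATAAA, and 64.8% of its bases were G or C, against a median of 52.4% over all 32851 windows. At least 1 GGGCGG was found in 32.7% of all windows and TATAAA in 12.4%.
Six2: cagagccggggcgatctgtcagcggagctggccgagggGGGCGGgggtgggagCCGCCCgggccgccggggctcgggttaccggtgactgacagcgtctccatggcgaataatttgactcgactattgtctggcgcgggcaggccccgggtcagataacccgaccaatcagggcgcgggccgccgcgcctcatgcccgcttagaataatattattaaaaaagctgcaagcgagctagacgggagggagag

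The genes nearest to *Six2* in pattern were sought by the Euclidean distance between mean-centred log2(FPKM + 1) values over the 4 libraries, among the 9801 other genes that reached 5 FPKM in any of the libraries. The nearest was *Foxd1*, a forkhead factor gene, at a distance of 0.878, with 2.52 FPKM in GP and 37.1 in COR, 135 in PF, and 52.3 in SAG. *Efemp1*, which encodes a fibulin of the extracellular matrix, followed at 0.963, and the microRNA gene *Mir1896* at 1.04. Of the 9801 genes, 2 lay within a distance of 1 of *Six2*. With 4 values per gene, such likeness is a description only.

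A partner of *Six2* was less divided. *Eya2*, which encodes a cofactor of factors of its family, was at 22.9 FPKM in GP and at 42.1 in COR, 70.8 in PF, and 32.1 in SAG. In the list of 12 genes of the *Six2*, *Eya2*, and *Dach1* families, 7 were compared between GP and PF. In GP, 2 (*Six2* and *Eya2*) were at least 3-fold lower, *Eya2* only just, and 1 (*Eya3*) at least 3-fold higher. The shares over all genes were 5.72% lower and 6.24% higher. *Eya3*, at 0.065 FPKM in PF and 2.41 in GP, entered through GP alone, where it had to be higher. Between GP and SAG, 1 (*Six2*) of 9 was lower and 0 higher in GP, compared with 4.8% and 3.86% of all genes. Between GP and COR, 1 (*Six2*) of 7 was lower and 0 higher in GP, compared with 1.2% and 3.2%. Of 9 genes of this list compared between PF and SAG, 1 (*Six5*) was at least 3-fold higher in PF, at 19.8 and 5.19 FPKM. The share over all genes was 6.64%.

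The 2 receptors of platelet-derived growth factor differed in how evenly they were spread. *Pdgfra* (chromosome 5, 75548316 to 75594229) was at 12.7 FPKM in GP and at 17.7 in COR, 18.8 in PF, and 14.3 in SAG. This was the narrowest range of the 10 genes, 1.48-fold between the highest and lowest library. *Pdgfrb* (chromosome 18, 61204804 to 61244715) was at 20.5 FPKM in GP and at 26.7 in COR, 48.3 in PF, and 13.8 in SAG. PF stood above the other libraries, and the PF vs SAG log2 ratio was 1.74, or 3.33-fold on the FPKM + 1 scale. After a correction for GC content this ratio was 1.38, below the 3-fold threshold. *Pdgfrb* over *Pdgfra* within a library was 1.62 in GP and 1.51 in COR, 2.58 in PF, and 0.966 in SAG, so the beta receptor was the more abundant transcript in PF, COR, and GP and the 2 were close in SAG.

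The ligands were dominated by *Pdgfa*, which encodes the A chain that binds the alpha receptor. *Pdgfa* was at 84.7 FPKM in GP and at 67.4 in COR, 68.3 in PF, and 38.8 in SAG, and it exceeded *Pdgfra* in each library, by 2.72-fold in SAG to 6.68-fold in GP. *Pdgfc* was at 29.4 FPKM in GP and at 14.2 in COR, 11.04 in PF, and 10.7 in SAG. *Pdgfd*, which encodes a ligand of the beta receptor, was at 10.98 FPKM in GP and at 7.21 in COR, 28.8 in PF, and 12.4 in SAG, and PF vs COR was the 1 comparison in which a ligand gene passed 3-fold. *Pdgfb* was listed at 0 in PF and below 1 FPKM elsewhere. PF held the highest values of both *Pdgfrb* and *Pdgfd*. It was the highest library for 35.5% of the 10013 genes that reached 1 FPKM in every library.

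**Figure D2:**
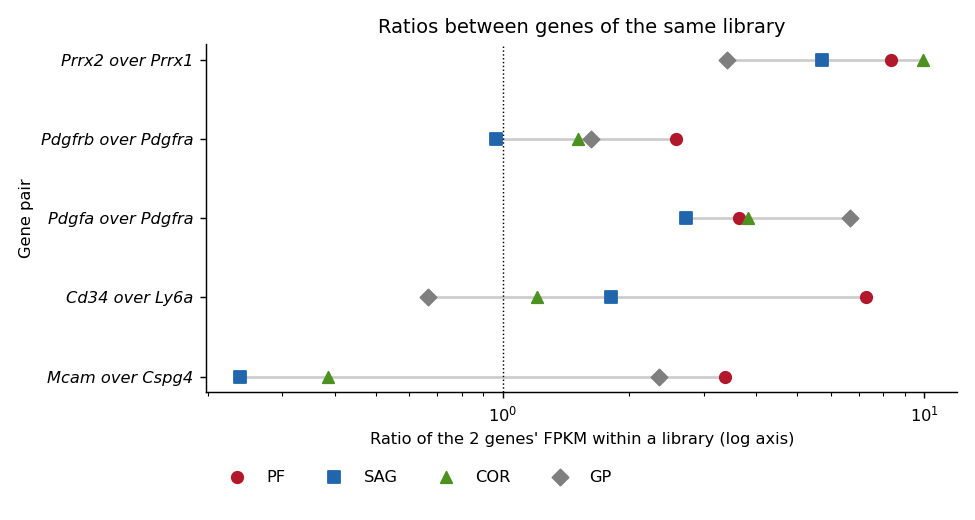
Ratio of the FPKM of 2 genes within the same library (log axis) for 5 gene pairs in PF, SAG, COR, and GP, 1 point per library, with a dotted line at a ratio of 1. *Mcam* over *Cspg4* lies at 2.35 or more in GP and PF and below 1 in SAG and COR.

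The surface antigens *Ly6a* and *Cd34* had different patterns. *Ly6a* (chromosome 15, 74825308 to 74828064) was at 43.1 FPKM in GP and at 32.9 in COR, 6.13 in PF, and 6.91 in SAG. COR and GP formed the high pair and PF and SAG the low pair, with log2 ratios of -2.25 for PF vs COR, 2.10 for COR vs SAG, 2.63 for GP vs PF, and 2.48 for GP vs SAG. *Cspg4* and *Prrx1* showed the same division with smaller differences, and so did 17.0% of 13998 genes with FPKM of at least 1, although PF vs COR reversed for *Prrx1* after division by *Gapdh* and after the GC correction. *Ly6a* belongs to a family of closely related neighbours whose reads may be shared, which makes its level uncertain. *Ly6c1*, the neighbour named after its values were seen, was at 9.47 FPKM in GP and at 5.73 in COR, 2.30 in PF, and 0.423 in SAG, below *Ly6a* by 2.67-fold or more in each library. *Ly6e* ran the other way, at 131 and 124 FPKM in PF and SAG and 56.1 and 35.6 in COR and GP. *Ly6h* was highest in SAG, at 12.9 FPKM. The 3 genes nearest to *Ly6a* in pattern were *Map6*, which encodes a microtubule-associated protein, at a distance of 0.175, *Glipr1* at 0.277, and *Il2rg*, which encodes a cytokine receptor chain, at 0.292.

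Markers of bone-forming cells are given beside *Ly6a*. Of 10 osteoblast markers, 6 were higher in COR and GP than in PF and SAG, among them *Spp1* and *Ibsp*. *Spp1*, the gene of osteopontin, was at 6882 FPKM in GP and at 8324 in COR, 1649 in PF, and 617 in SAG, and *Ibsp*, the gene of bone sialoprotein, was at 123, 104, 1575, and 761 FPKM in PF, SAG, COR, and GP. *Col1a1*, the collagen gene of that list, was at 5048 FPKM in GP, 4894 in PF, and 606 in SAG. It is listed at 0 in COR, which is not used as a measurement. The part of differing cell types in the *Ly6a* values was not tested, and in bulk RNA fewer cells of a type and less RNA per cell cannot be told apart.

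*Cd34* (chromosome 1, 196765015 to 196787486) was at 28.7 FPKM in GP and at 39.8 in COR, 44.6 in PF, and 12.5 in SAG. SAG was the low library. The log2 ratio was 1.76 for PF vs SAG and 1.60 for COR vs SAG, the latter just past 3-fold and at 1.55 after the GC correction. *Cd34* over *Ly6a* was 0.666 in GP and 1.21 in COR, 7.28 in PF, and 1.81 in SAG. *Cd34* and *Pdgfrb* had the same order of libraries, PF, COR, GP, and SAG from high to low, as did 7.64% of 13998 genes. The genes nearest to *Cd34* in pattern were *Cdr2*, *Fbxo17*, and *Txndc5*, at distances from 0.0447 to 0.098, and those nearest to *Pdgfrb* were *Sh3rf3*, *9430020K01Rik*, and *Six5*, at distances from 0.0594 to 0.123. These patterns were common ones, since 1302 genes lay within a distance of 1 of *Cd34* and 2259 of *Pdgfrb*, compared with 47 for *Ly6a* and 28 for *Mcam*.

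*Cd34* and *Ly6a* also mark blood and endothelial cells, so genes of those cells are given beside them. *Ptprc*, the gene of CD45, was at 0.568 FPKM in PF and at or below 0.057 in the other libraries, and *Tyrobp* is listed at 0 in every library. Of 12 hematopoietic markers, the number that reached 1 FPKM was 5 in PF, 4 in SAG and in GP, and 2 in COR. Their summed level was 20.7 FPKM in GP and 8.60 in COR, 51.5 in PF, and 25.7 in SAG, led by *Lyz2*, a lysozyme gene, at 30.2 FPKM in PF, with *Hba-a1*, a globin gene, at 9.40 in PF and *Kit*, the stem cell factor receptor gene, at 11.7 in SAG. Endothelial genes were uneven. *Pecam1* was at or below 0.295 FPKM, the Tie2 gene *Tek* at or below 0.627, and *Cdh5* between 0.119 and 1.68 FPKM. *Kdr*, the gene of a vascular endothelial growth factor receptor, was highest in SAG, at 14.9 FPKM, and *Egfl7* was highest in PF, at 16.1 FPKM. *Erg*, a transcription factor gene of endothelium, was between 2.60 FPKM in PF and 7.20 in COR. *Esam*, the gene of an adhesion molecule, was at 10.5 FPKM in GP and at 2.60 in COR, 29.5 in PF, and 0.727 in SAG. Of 14 endothelial markers, 6 reached 1 FPKM in PF and 4 in each other library, and their summed level was between 20.4 FPKM in COR and 54.8 in PF. The part of blood and endothelial cells in the *Cd34* and *Ly6a* values was not tested.

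Among the genes used for pericytes, *Mcam* stood apart from *Nes* and *Cspg4*. *Mcam* (chromosome 9, 43942552 to 43950810) was at 39.4 FPKM in GP and at 7.59 in COR, 29.7 in PF, and 2.28 in SAG. PF and GP were high and SAG and COR low, with log2 ratios of 3.62 for GP vs SAG, 2.23 for GP vs COR, 3.22 for PF vs SAG, and 1.84 between PF and COR. The PF vs SAG ratio of *Mcam* was above or equal to 99.7% of those of the 13490 genes compared. GP vs PF was 0.40, and -0.06 with values relative to *Gapdh*, so the order of these 2 libraries was not settled.

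*Cspg4* (chromosome 9, 56712911 to 56747677) was at 16.7 FPKM in GP and at 19.7 in COR, 8.81 in PF, and 9.55 in SAG. Its highest and lowest libraries differed 2.23-fold, and the high pair was COR and GP. Its PF vs SAG log2 ratio was -0.10, with -0.70 after the GC correction and 0.38 relative to *Gapdh*. *Nes* (chromosome 3, 87775000 to 87784373) was near the low end in every library, at 2.88 FPKM in GP and at 1.37 in COR, 1.37 in PF, and 1.87 in SAG. GP was the highest library for *Nes*, and the order of the sutures changed with the scaling. *Mcam* over *Cspg4* was 2.35 in GP and 0.386 in COR, 3.37 in PF, and 0.239 in SAG, so the 2 pericyte markers changed places between the tissue pairs.

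Genes of mural cells, the pericytes and smooth muscle cells of vessels, had values that moved with *Mcam*. The gene nearest to *Mcam* of the 9801 compared was *Myh11*, which encodes smooth muscle myosin, at a distance of 0.329, with 19.2 FPKM in GP and at 3.46 in COR, 17.3 in PF, and 0.425 in SAG. *Galr2*, a galanin receptor gene, followed at 0.463. Of 14 pericyte and mural markers, 13 were compared between PF and SAG, and 7 were at least 3-fold higher and 0 at least 3-fold lower in PF. The shares over all genes were 6.64% and 9.04%. Only 6 of the 14 reached 1 FPKM in SAG, so 7 of the 13 entered through PF alone, where they had to be higher, and 4 of the 7 calls (*Rgs5*, *Kcnj8*, *Des*, and *Myh11*) are among those. The other 3 calls were *Tagln*, *Cnn1*, and *Foxs1*. The median log2 ratio of the 13 was 2.36 and lay between 2.19 and 3.09 under the alternatives, and the same filter bears on it. Between GP and SAG, 9 of 12 were at least 3-fold higher and 1 (*Vtn*, the vitronectin gene) lower in GP, again with genes that entered through GP alone. The shares over all genes were 3.86% and 4.8%. Between PF and COR, 6 of 13 were higher and 1 (*Anpep*) lower in PF, compared with 6.81% and 4.87% of all genes. *Rgs5*, 1 of the 6, and *Abcc9* were below 1 FPKM in COR and entered through PF alone. The median log2 ratio was 1.38, with 1.02 after the GC correction, 1.61 relative to *Gapdh*, and 1.75 with a pseudocount of 0.1. The same filter bears on that median. Between GP and COR, 2 (*Rgs5* and *Myh11*) of 12 were higher and 0 lower in GP, compared with 3.2% and 1.2%. There *Rgs5* entered through GP alone.

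Genes that define pericytes were low compared with *Mcam*. *Rgs5*, a regulator of G protein signalling and a defining pericyte gene, was at 10.8 FPKM in GP and at 0.432 in COR, 7.498 in PF, and 0.614 in SAG. *Kcnj8*, a potassium channel gene, was at 7.06, 0.569, 3.50, and 3.83 FPKM, its partner *Abcc9* at 1.23, 0.056, 0.675, and 0.77, and *Notch3* at 4.26, 0.764, 1.02, and 2.77 FPKM in PF, SAG, COR, and GP. All 4 were thus highest in PF and GP, and in SAG they were below 1 FPKM while *Mcam*, *Cspg4*, and *Pdgfrb* were not. The most abundant genes of the list were *Tagln*, a contractile gene, at 221, 15.9, 65.4, and 139 FPKM, *Ndufa4l2* at 102, 46.4, 256, and 193, and *Vtn* at 67.6, 26.4, 1.14, and 2.46 in PF, SAG, COR, and GP. The division PF and GP above SAG and COR, chosen after the values of *Mcam* were seen, was found for 9 of the 13 mural markers with FPKM of at least 1 and for 13.0% of all 13998 such genes. The summed level of the list was 441 FPKM in GP and 368 in COR, 498 in PF, and 102 in SAG.

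**Figure D3:**
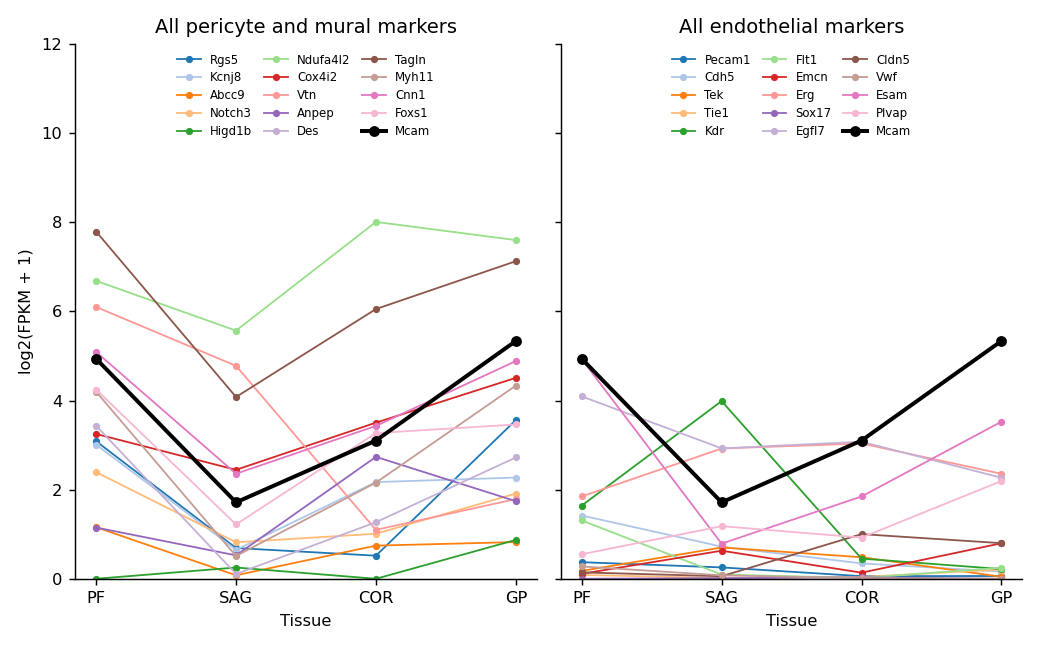
log2(FPKM + 1) of *Mcam* (black) and of every gene in the lists of pericyte and mural and of endothelial markers in PF, SAG, COR, and GP, 1 value per library. *Mcam* dips in SAG and COR with *Tagln* and *Myh11* on the left, and *Pecam1* on the right stays near 0.

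Some glial genes moved with *Mcam* too. *Sox10*, the transcription factor gene of neural crest and Schwann cells, was at 14.6 FPKM in GP and at 2.80 in COR, 6.46 in PF, and 0.65 in SAG. *Mbp*, a gene of myelin, was also higher in PF and GP than in SAG and COR, at 88.1, 12.2, 13.0, and 82.9 FPKM in PF, SAG, COR, and GP. *Fabp7* and *S100b* had their highest values in SAG, at 67.0 and 57.8 FPKM. The summed level of the 12 glial markers was 224 FPKM in GP and 51.6 in COR, 183 in PF, and 153 in SAG, and *Olig1* and *Olig2* are listed at 0 in PF, COR, and GP. *Mcam* over *Sox10* was between 2.70 and 4.59 in the 4 libraries, and *Mcam* over *Rgs5* was between 3.65 and 3.96 in PF, SAG, and GP and 17.6 in COR. Whether mural cells, glia, or the sorted cells themselves carried the *Mcam* transcripts was not tested.

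The comparison of all 10 genes between tissues can be read against the share of all genes that passed the same threshold, without a test. Between PF and SAG, 3 of 10 (*Pdgfrb*, *Cd34*, and *Mcam*) were at least 3-fold higher in PF, compared with 6.64% of 13490 genes, and 0 were lower, compared with 9.04%. Between PF and COR, 1 (*Mcam*) was higher and 1 (*Ly6a*) lower in PF, compared with 6.81% and 4.87% of 12853 genes. Between COR and SAG, 2 (*Ly6a* and *Cd34*) were higher in COR, compared with 3.11% of 12720 genes, and 0 were lower, compared with 6.15%. The median log2 ratio of the 10 genes was 0.04 for PF vs COR, 0.94 for COR vs SAG, and 0.64 between PF and SAG, and that of all genes compared was 0.05, -0.02, and 0.03.

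Against GP, *Six2* was the 1 gene of the 10 that was lower in GP than in each suture by 3-fold or more. Between GP and PF, 1 (*Ly6a*) was higher and 1 (*Six2*) lower in GP, compared with 6.24% and 5.72% of 13101 genes. Between GP and SAG, 2 (*Ly6a* and *Mcam*) were higher and 1 (*Six2*) lower in GP, compared with 3.86% and 4.8% of 12929 genes. Between GP and COR, 1 (*Mcam*) was higher and 1 (*Six2*) lower in GP, compared with 3.2% and 1.2% of 12209 genes. The median log2 ratio of the 10 genes was -0.29 for GP vs COR, 0.64 for GP vs SAG, and -0.07 for GP vs PF. That of all genes compared was -0.02, -0.03, and -0.03. The 6 comparisons share libraries, so they do not stand for separate observations.

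**Figure D4:**
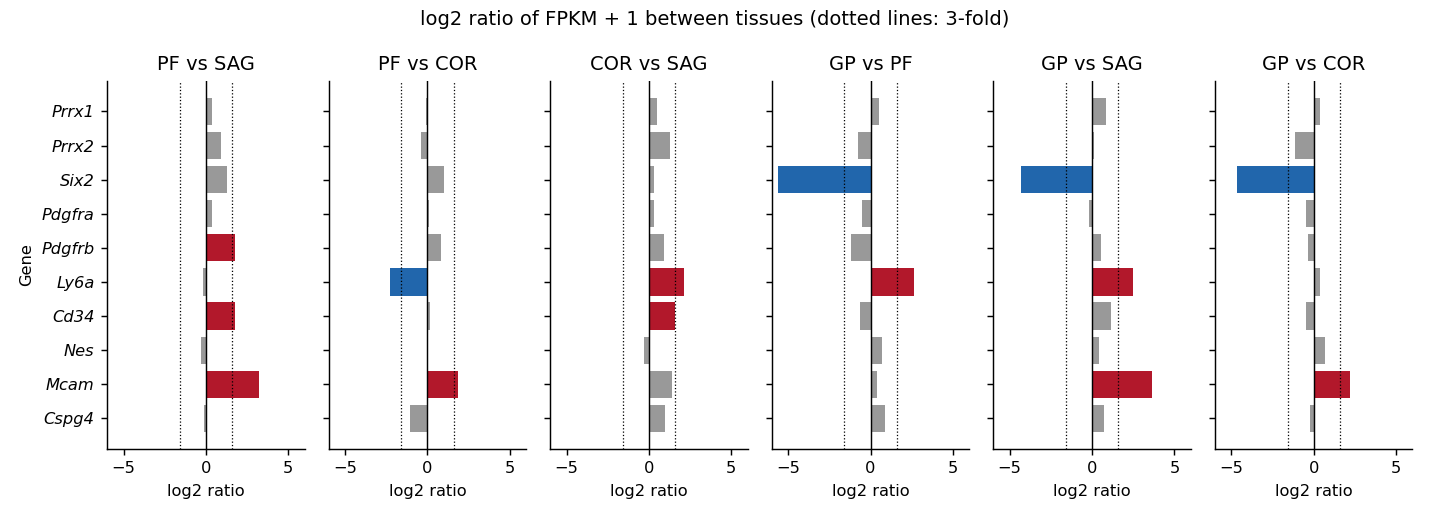
log2 ratio of FPKM + 1 of each gene in 6 comparisons of tissues, the first tissue against the second, with dotted lines at 3-fold and coloured bars for ratios past it (red higher, blue lower in the first tissue). *Six2* is lower in GP in all 3 comparisons with sutures, at -5.61, -4.31, and -4.63, and *Mcam* exceeds 3-fold in 4 comparisons.

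SAG held the lowest value of 5 of the 10 genes (*Prrx1*, *Prrx2*, *Pdgfrb*, *Cd34*, and *Mcam*) and the highest of none, although *Prrx2* was lower in GP than in SAG after quantile normalization. SAG was the lowest library for 30.6% and the highest for 25.3% of the 10013 genes with FPKM of at least 1 in every library. In the same library chondrocyte markers were high. The summed level of 11 such genes was 5287 FPKM in SAG and 3485 in GP, compared with 159 in PF and 185 in COR. *Col2a1*, the cartilage collagen gene, was at 1750 FPKM in SAG, 1731 in GP, 31.4 in PF, and 35.4 in COR, and *Matn1* at 838, 151, 9.40, and 13.5 in that order. *Col9a3* was at 1627 FPKM in SAG, 465 in GP, and 34.2 and 29.4 in PF and COR. The part of cartilage RNA in the low values of SAG was not tested.

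**Figure D5:**
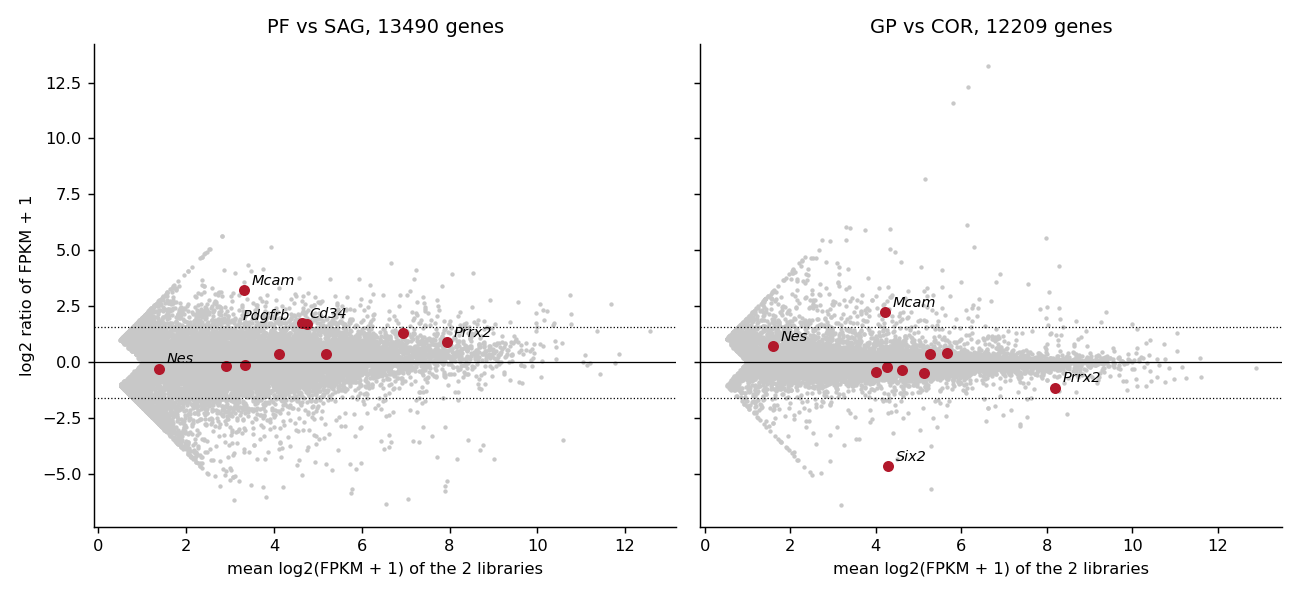
log2 ratio of FPKM + 1 against the mean log2(FPKM + 1) of the 2 libraries for every gene compared (grey), PF vs SAG on the left and GP vs COR on the right, with the 10 genes in red and dotted lines at 3-fold. *Mcam* lies above the upper line in both panels at 3.22 and 2.23, *Six2* below the lower line on the right at -4.63, and the grey points spread more widely at low means.

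Other genes used to mark skeletal progenitors varied as well. Of 20 such genes, 18 were compared between PF and SAG, with a median log2 ratio of 0.83. In PF, 4 (*Gli1*, *Acta2*, *Cxcl12*, and *Cd44*) were at least 3-fold higher and 2 (*Prg4* and *Sox9*) at least 3-fold lower. The shares over all genes were 6.64% and 9.04%. *Gli1*, at 0.668 FPKM in SAG, entered through PF alone. Between PF and COR, 1 of 18 was higher and 2 lower in PF, compared with 6.81% and 4.87% of all genes. Between COR and SAG, 5 of 18 were higher and 2 lower in COR, compared with 3.11% and 6.15%. The medians of these 2 comparisons were 0.68 and 0.27. *Acta2*, the gene of smooth muscle actin, had the division of *Mcam*, at 400.2 FPKM in GP and at 232 in COR, 530 in PF, and 38.9 in SAG. *Postn*, the gene of the matrix protein periostin, had that of *Ly6a*, at 166, 191, 2358, and 1284 FPKM in PF, SAG, COR, and GP. *Cxcl12*, the gene of a chemokine of marrow stroma, was at 108 FPKM in GP and at 93.0 in COR, 773 in PF, and 210 in SAG.

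The sorting genes set the frame for these values. *Itgav*, the gene of CD51, was between 6.20 and 15.0 FPKM and *Cd200* between 23.5 and 62.6 FPKM in the 4 libraries. Of the antigens sorted as negative, *Thy1* and *Tek* were below 1 FPKM in every library, *Eng*, the gene of CD105, was between 0.679 and 1.70, and *Enpep*, the gene of 6C3, between 1.39 and 7.05 FPKM, the highest in PF. From the most frequent low value of FPKM times transcript length, a rough measure of what 1 fragment is worth, PF was the shallowest library, with a relative depth of 41.5% of that of SAG. The least covered of the 10 genes was *Ly6a* in PF, at 86.4 times that low value. *Prrx1*, *Cd34*, and *Mcam* each overlap a noncoding gene of the opposite strand in the annotation, and the counting is not stated to use strand, so reads of the 2 cannot be told apart there. *Prrx1* also overlaps a noncoding gene of its own strand.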

How the data were processed

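Bulk RNA-seq of CD51+;CD200+ cells gave 1 library for each of PF, SAG, COR, and GP. Per the labels and methods, read pairs were aligned by the authors to the mm9 genome with STAR 2.5.1b, and they computed FPKM per gene symbol with Cuffdiff of Cufflinks 2.2.1 and the Illumina iGenomes gene model. How Cuffdiff scaled the libraries is not given in the sources used here. FPKM carries no counts, so depth is known only in relative terms and no counting interval is given.

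Samples were grouped by their titles. Ratios were taken as log2(FPKM + 1) differences, which understate changes of low genes, for genes that reached 1 FPKM in either library compared. The threshold was 3-fold, after the study. No replicates exist, so no test was made. The 10 genes and the lists of other genes were chosen with earlier results of these data known. Named from the lists were the 3 most abundant genes of those past 3-fold with FPKM of 5 or more, the defining genes of each cell type, and all PDGF ligands; for each of the 10 genes past 3-fold, the 3 genes nearest in pattern. *Ly6c1*, *Tyrobp*, *Erg*, *Des*, *Cnn1*, *Foxs1*, *Gli1*, *Olig1*, *Olig2*, *Eya3*, *Anpep*, *Cd44*, *Prg4*, and *Sox9* were added after their values were seen. So were *Alpl*, *Bglap*, and *Ifitm5*. Some genes that the rule names are not reported here.

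Alternatives were a pseudocount of 0.1, median-ratio scaling, quantile normalization, values relative to *Gapdh*, a GC-content correction by loess with a span of 0.3, other filters on low values, and a 2-fold threshold. Gene positions, transcript lengths, and GC content came from the GENCODE annotation of mm9, which covered all 10 genes and 80.8% of symbols. The *Six2* window came from RefSeq-based promoters (GRCm38.p6), which held 8 of the 10 genes, and was placed on mm9 by its 1 exact match. Python 3.11.15, numpy 2.4.6, pandas 2.3.3, statsmodels 0.14.6, and matplotlib 3.10.9 were used, and the steps were tested on simulated data.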

Additional observations from a re-analysis of the deposited data

How the results depend on the processing

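No paired analysis was possible because no site has a replicate, and for the same reason no replicate could be left out. Of the 14 ratios of the 10 genes past 3-fold, 14 kept their direction and 12 stayed past 3-fold under the 5 alternatives of scaling and pseudocount. The exceptions came with the GC correction, with 1.38 for *Pdgfrb* in PF vs SAG and 1.55 for *Cd34* in COR vs SAG, which left 1 gene past 3-fold in COR vs SAG. With a threshold of 2-fold, 4 genes passed in COR vs SAG in place of 2. The counts of the other comparisons stayed within 1.5 times those reported. Of the 46 ratios below 3-fold, 8 changed sign under some alternative, and 3 passed 3-fold: *Six2* in PF vs SAG (1.82) and *Pdgfrb* in GP vs PF (-1.65) relative to *Gapdh*, and *Mcam* in COR vs SAG (up to 1.69). Division by *Gapdh* moved the median PF vs SAG log2 ratio of all genes to 0.51. Ratios that the GC correction moved by over 1.5 times included *Prrx1* in GP vs PF and *Prrx2* in PF vs SAG and GP vs PF. Also among them were *Six2* in PF vs SAG and PF vs COR, and *Cspg4* in PF vs SAG, as given with those genes. The cause was not tested. Depth is unknown in counts, and the shallower PF library limits the low values there.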

Other observations

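Fibroblast genes ranged from very abundant to nearly undetected, and 6 or 7 of 12 such markers reached 5 FPKM in each library. The 3 most abundant of those past 3-fold are given here. *Dcn*, the gene of the matrix proteoglycan decorin, was at 2268 FPKM in GP and at 1271 in COR, 2503 in PF, and 496 in SAG. *Lum*, the gene of the related lumican, was at 1213 FPKM in GP, 1898 in COR, 497 in SAG, and 931 in PF. *Cd248*, which encodes the stromal antigen endosialin, was at 52.4 FPKM in GP and at 100.4 in COR, 369 in PF, and 45.4 in SAG, at least 3-fold higher in PF than in each of the others and in the same order of libraries as *Cd34* and *Pdgfrb*. Of 12 fibroblast markers, 9 were compared between PF and SAG, with 3 at least 3-fold higher and 1 lower in PF. The shares over all genes were 6.64% and 9.04%. *Tcf21* is listed at 0 in SAG, COR, and GP. *Pi16*, used to mark fibroblasts with progenitor features, was below 1 FPKM in every library, between 0.026 and 0.493, and both were named after their values were seen.

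Osteoblast markers were mostly higher in COR than in SAG. *Col1a1* is listed at 0 in COR, which is not used as a measurement, so it is left out of both counts. Of the 9 other genes, 9 were at least 3-fold higher in COR than in SAG, and 7 were at least 3-fold lower in PF than in COR. The shares over all genes were 3.11% and 4.87%. Both comparisons held genes that entered through COR alone, where they had to be higher.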
